A study of Homo sapiens with 9 samples.

Results

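RAB21 and 9 other genes of the early endosome were followed in cells where 2 hairpins lowered EHMT2, which encodes the histone methyltransferase G9a. The 10 genes were RAB21, RAB5A, RAB5B, RAB5C, RAB22A, RAB31, RAB4A, RAB11A, RABEP1 and EEA1, among 60308 gene identifiers in the count tables, of which 18435 passed the filter on low counts. All 10 members passed it. RAB21 was selected on its level in both knockdown groups relative to the control, so its values in those comparisons are a description and carry no test. The other 9 genes were chosen as its relatives and partners and not for their own values, though with earlier results of these data known.

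RAB proteins are small GTPases that switch between a membrane-bound, active form with GTP and an inactive form with GDP, and each marks a step of membrane traffic. On early endosomes, RAB5 recruits tethers and lipid kinases that fuse incoming vesicles, and cargo then returns to the surface through recycling endosomes marked by RAB4 and RAB11 or moves on to late endosomes. In epithelial cells this traffic carries growth factor receptors and integrins, the receptors through which cells hold on to the matrix, and RAB21 is known for binding integrin tails and guiding their return to the surface.

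RNA was sequenced from MCF10A, an immortalised, non-tumour line of human breast epithelium. All cells, the control included, carried ectopic MYC (pBABE-hygro-MYC) and the PI3K mutant H1047R (pMN-IRES-GFP), as well as a tetracycline-inducible pLKO hairpin switched on with 2 µg/mL doxycycline for 72 hours. The control hairpin was a scrambled sequence (shSCR) and the hairpins against EHMT2 were shG9a_1 and shG9a_4, with 3 biological replicates each per the design text. There was a single control hairpin and both comparisons share its 3 libraries, so a change caused by G9a loss cannot be told apart from a property of the shSCR cultures.

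Reads in genes numbered 53065611 to 76958831 per library, and at that depth the 10 members had from 420 reads (RAB31) to 14889 reads (RABEP1) in a library. The basal epithelial markers KRT5, KRT14, KRT17, TP63 and ITGB4 summed to 2073 to 3932 CPM (counts of a gene scaled by the library's reads in genes). Markers of blood cells (PTPRC, CD3E and CD68) and of endothelium (CDH5 and VWF) were each at or under 0.112 CPM. Among 6 fibroblast markers, COL1A2 and COL3A1 were at or under 0.346 CPM, while DCN reached 412 CPM.

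EHMT2 (ENSG00000204371.11), against which both knockdown hairpins are directed, was at 51.4, 45.4 and 45.9 CPM under shSCR, 17.2, 22.8 and 20.8 CPM under shG9a_1, and 31.7, 27.0 and 34.1 CPM under shG9a_4. The 3 groups did not overlap, and shG9a_1 was lowest. Its log2 fold change against shSCR was −1.21 (SE 0.11) in shG9a_1, past the threshold of 0.05 in edgeR's quasi-likelihood test (adjusted p = 0.00766). Leaving out replicate 1 of shSCR raised the adjusted p to 0.0611, and leaving out replicate 2 or 3 of shG9a_1 raised it to 0.0513 or 0.0623. In shG9a_4 it was −0.61 (SE 0.11), which missed the threshold (adjusted p = 0.259, or 0.0907 with the replicate number as a block). DESeq2 and a fit without the filter on low counts did call it (adjusted p = 0.000912 and 2.24e-05).

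RAB21 (ENSG00000080371.5) was higher in each of the 6 knockdown libraries than in each of the 3 control libraries. Its libraries read 81.4, 84.0 and 74.5 CPM under shSCR, 135, 131 and 122 CPM under shG9a_1, and 131, 137 and 116 CPM under shG9a_4. The lowest knockdown library stood well clear of the highest control library, and the knockdown groups overlapped each other. Averaged by group this was 79.99 ± 4.89, 129 ± 7.05 and 128 ± 10.9 CPM (SD over 3 libraries). A non-coding gene overlaps exons of RAB21 on the opposite strand, where 1 to 19 reads lay in a library.

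As a fold, RAB21 was at 1.64 times its control level in shG9a_1 (95% confidence interval 1.44 to 1.87, log2 fold change 0.72, SE 0.09). In shG9a_4 it was at 1.61 times that level (1.41 to 1.83, log2 fold change 0.68, SE 0.08). The ratios taken within a replicate number were close to each other. Against shSCR they were 1.66, 1.56 and 1.63 in shG9a_1 and 1.60, 1.63 and 1.55 in shG9a_4 for numbers 1, 2 and 3. By p-value RAB21 ranked 3rd of all genes in both comparisons. For scale, 0.038% of the 18435 genes passed the threshold in shG9a_1 (7 genes, 6 higher) and 0.0271% in shG9a_4 (5 genes, 5 higher). Since RAB21 was chosen for this, nothing further is read from its rank.

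A choice on both knockdown groups also favours levels that are alike in them, so the difference of RAB21 between the hairpins is a description too. RAB21 was at a log2 difference of −0.03 (SE 0.08) in shG9a_4 against shG9a_1, with a 95% confidence interval of −0.22 to 0.15, or 0.860 to 1.11 times. EHMT2 itself was at a log2 difference of 0.60 (SE 0.11) in the same comparison, with groups that did not overlap. That value missed the threshold in edgeR (adjusted p = 1.00, or 0.203 with the block), but passed it in DESeq2 (0.0173) and without the filter on low counts (4.01e-05). Over all genes, 0% passed in this comparison with or without the block, 754 had an unadjusted p under 0.05 (1619 with the block), and DESeq2 called 6.

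**Figure D1:**
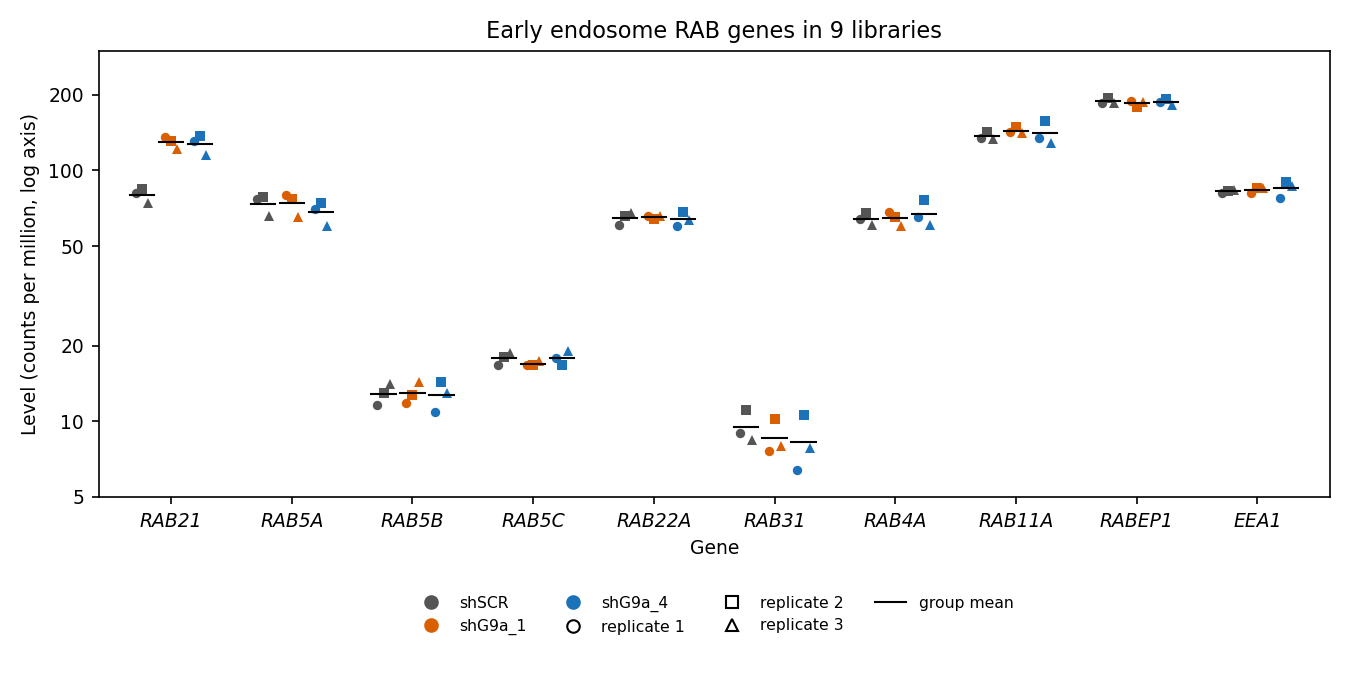
Level of each of the 10 genes in CPM (log axis) in the 9 libraries, coloured by hairpin, with a symbol for each replicate number and a bar for the group mean. The 6 knockdown libraries of RAB21 (116 to 137 CPM) lie above its 3 shSCR libraries (74.5 to 84.0 CPM), and the groups of the other 9 genes overlap.

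The authors' deposited tables give RAB21 an unsmoothed fold of 1.64 in shG9a_1 and 1.61 in shG9a_4, with a posterior probability of different expression of 1 in both. These values are for the comparisons on which RAB21 was chosen, so they are a description too and no separate support. The authors' deposited tables list 8 of the 10 members. For the other 7 listed members the authors' deposited tables give folds of 0.915 to 1.06 and 0.875 to 1.05, and probabilities of at most 0.0156. In the authors' deposited tables that probability was above 0.95 for 322 of 11015 genes in shG9a_1 and for 66 in shG9a_4.

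RAB5 exists as 3 near-equal proteins encoded by RAB5A, RAB5B and RAB5C, which govern vesicle fusion at the early endosome. RAB5A (ENSG00000144566.10) was at 77.1, 78.2 and 65.6 CPM under shSCR, 79.5, 76.7 and 65.5 CPM under shG9a_1, and 70.2, 74.0 and 60.1 CPM under shG9a_4. The groups overlapped, and the library of replicate number 3 was the lowest in each of them. Its log2 fold changes were 0.03 (SE 0.11, 95% confidence interval −0.21 to 0.27) and −0.10 (SE 0.11, −0.34 to 0.14).

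RAB5B (ENSG00000111540.15) was the scarcer copy, at 11.6, 12.96 and 14.0 CPM under shSCR, 11.8, 12.7 and 14.3 CPM under shG9a_1, and 10.9, 14.4 and 12.9 CPM under shG9a_4. RAB5C (ENSG00000108774.14) was at 16.8, 18.0 and 18.7 CPM under shSCR, 16.8, 16.7 and 17.4 CPM under shG9a_1, and 18.0, 16.8 and 19.1 CPM under shG9a_4. Both sets of groups overlapped. The 3 copies together came to 104 ± 5.57, 104 ± 5.81 and 98.8 ± 6.57 CPM (SD, n = 3 each). Within a replicate number the shG9a_4 sum was below shSCR in 3 of 3 cases, at 99.0 against 106 CPM, 105 against 109 CPM and 92.1 against 98.3 CPM for numbers 1, 2 and 3. The shG9a_1 sum, at 108, 106 and 97.3 CPM, was above shSCR in number 1 and below it in numbers 2 and 3. By gene, the ratios of shG9a_4 to shSCR in numbers 1, 2 and 3 were 0.91, 0.95 and 0.92 for RAB5A, the most abundant copy. RAB5B (0.93, 1.11 and 0.92) and RAB5C (1.07, 0.93 and 1.02) went both ways, so the copies did not fall together. The sum was not tested, and none of the 3 copies passed the threshold with or without the block. Counts of RAB5C are uncertain. In GENCODE gene models, which are on another build than the counts, a gene on the same strand shares exon sequence with it. Whether the annotation behind the counts held that gene is not known. If it did, reads that fit both would have been dropped.

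RAB22A and RAB31 encode close kin of RAB5 and RAB21. RAB22A serves sorting and tubular recycling at the early endosome, and RAB31 works between the Golgi and endosomes. RAB22A (ENSG00000124209.3) ranged from 60.4 to 67.9 CPM under shSCR, from 63.9 to 66.1 CPM under shG9a_1 and from 60.1 to 68.1 CPM under shG9a_4. RAB31 (ENSG00000168461.12) was at 8.95, 11.1 and 8.40 CPM under shSCR, 7.63, 10.2 and 7.99 CPM under shG9a_1, and 6.41, 10.6 and 7.84 CPM under shG9a_4. Here the library of number 2 was the highest in every group, and the groups overlapped. RAB31 gave the widest intervals of the 10 genes, with log2 fold changes of −0.12 (−0.54 to 0.30) and −0.19 (−0.61 to 0.23).

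The recycling GTPases were RAB4A, which returns cargo quickly from early endosomes, and RAB11A, which acts from the recycling endosome. RAB4A (ENSG00000168118.11) was at 64.2, 67.6 and 60.8 CPM under shSCR, 68.4, 65.4 and 59.9 CPM under shG9a_1, and 65.5, 76.1 and 60.4 CPM under shG9a_4. RAB11A (ENSG00000103769.9) was at 135, 142 and 133 CPM under shSCR, 142, 149 and 141 CPM under shG9a_1, and 135, 158 and 129 CPM under shG9a_4. In both genes the groups overlapped, and shG9a_4 replicate 2 was the highest of the 9 libraries. The log2 fold changes of RAB11A were 0.10 (SE 0.08, −0.08 to 0.27) and 0.05 (SE 0.08, −0.13 to 0.23). In the same GENCODE models RAB4A shares exon sequence with the gene SPHAR on the same strand. Whether the annotation behind the counts held SPHAR is not known, so that counts of RAB4A are uncertain too.

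RABEP1 and EEA1 encode RAB5 effectors rather than GTPases. RABEP1 makes rabaptin, which binds RAB5 together with its exchange factor, and EEA1 is the long tether that holds endosomes together before they fuse. RABEP1 (ENSG00000029725.16) ranged from 185 to 194 CPM under shSCR, from 179 to 189 CPM under shG9a_1 and from 183 to 192 CPM under shG9a_4. EEA1 (ENSG00000102189.16) ranged from 81.3 to 83.7 CPM, from 81.2 to 85.1 CPM and from 77.8 to 90.1 CPM. The groups of both genes overlapped, and the log2 fold changes lay between −0.002 and 0.05. At those levels the intervals were narrow, from −0.13 to 0.13 for RABEP1 and from −0.10 to 0.19 for EEA1 over both comparisons.

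Of the 9 members other than RAB21, 0 passed the threshold in either knockdown comparison in edgeR, 0 with the replicate block, 0 with DESeq2, and 0 had an unadjusted p under 0.05. Their lowest adjusted p was 0.845 in shG9a_1 and 1.00 in shG9a_4. The share of all genes passing was near 0 as well, at the percentages above, or 0.776% and 0.0759% with the block, so a count of 0 among 9 genes says little by itself. Over the 9 genes the 95% confidence intervals ran from 0.689 to 1.24 times control in shG9a_1 and from 0.656 to 1.22 times in shG9a_4. The difference between RAB21 and its relatives was not itself tested, since RAB21 was chosen for it.

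For 9 of these 9 genes the libraries of each knockdown group overlapped those of shSCR, where 16.1% of all genes did not overlap in shG9a_1 and 7.04% in shG9a_4. Their median log2 fold change was 0.03 in shG9a_1 and 0.002 in shG9a_4, next to 0.0009 and 0.002 over all genes tested. Between the 2 hairpins 0 of these 9 genes passed in edgeR, 0 in edgeR with the block and 0 in DESeq2, and 0 had groups that did not overlap, against 9.8% of all genes. An unadjusted p under 0.05 was found for 0 of them without the block and for RAB5A with it (0.0421, adjusted p = 0.555).

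**Figure D2:**
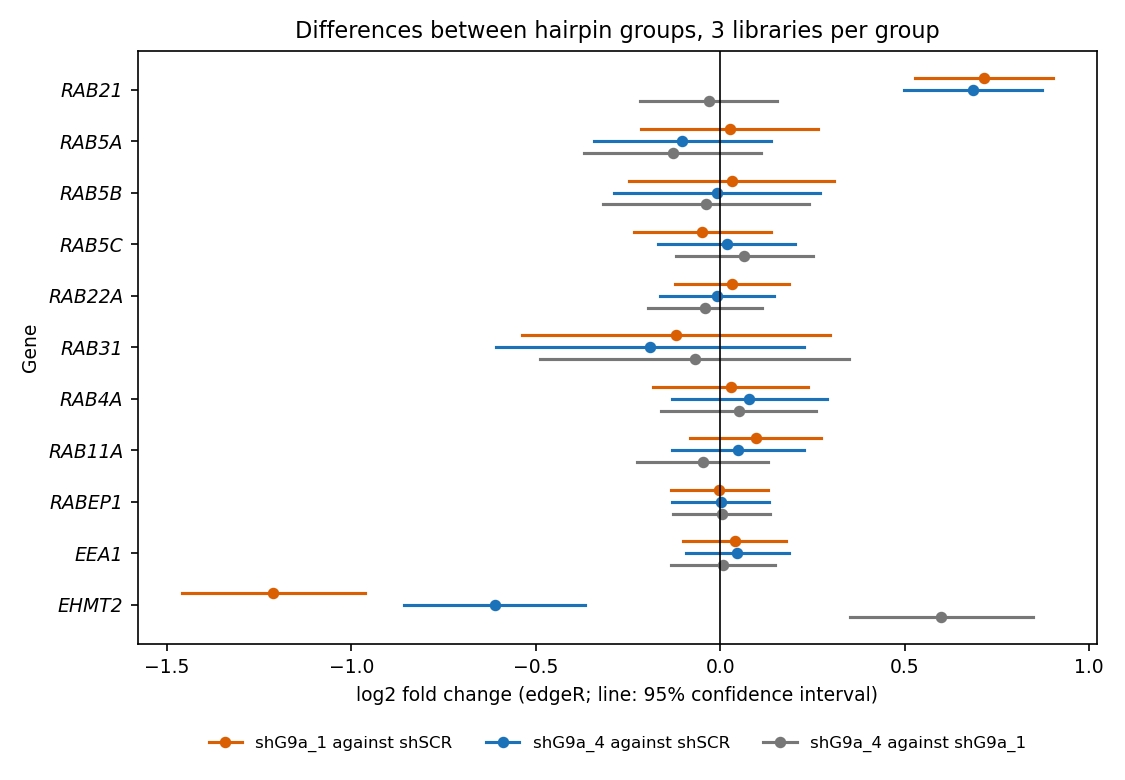
Log2 fold changes from edgeR with 95% confidence intervals (lines) for the 10 genes and EHMT2, for each hairpin against shSCR and for shG9a_4 against shG9a_1. RAB21 sits at 0.72 and 0.68 against shSCR and at −0.03 between the hairpins, EHMT2 at −1.21, −0.61 and 0.60, and each interval of the other 9 genes includes 0.

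Levels between genes were compared per kilobase of exon, on GENCODE 29 gene models. In shSCR the order was RABEP1 (28.9 ± 0.751 CPM per kilobase), RAB11A (24.1 ± 0.879), RAB5A (19.5 ± 1.85), RAB4A (19.4 ± 1.02), EEA1 (8.15 ± 0.122), RAB22A (6.97 ± 0.421), RAB5C (6.46 ± 0.333), RAB21 (4.99 ± 0.305), RAB5B (1.95 ± 0.183) and RAB31 (1.70 ± 0.252; SD, n = 3 each). The neighbours RAB5A and RAB4A, RAB22A and RAB5C, and RAB5B and RAB31 overlapped in their shSCR libraries. RAB21 was thus the 8th of 10 in the control, below RAB5A and above RAB5B. At 8.07 ± 0.439 CPM per kilobase in shG9a_1 and 7.96 ± 0.681 in shG9a_4 it was the 6th, next to EEA1 at 8.25 and 8.37. This order rests on one length per gene, which takes in every annotated exon, and RAB21 has the longest at 16036 bases.

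The replicate numbers of the labels marked a second source of variation, which the choice of members did not use. Libraries with the same number deviated from their group means together in all 9 pairs. Between numbers, RAB5A and RAB31 changed, 2 of the 10 members, where 7.47% of all genes passed (quasi-likelihood test of the number terms in edgeR). RAB5A fell by 0.27 on the log2 scale in number 3 against either of the others (adjusted p = 0.0191), and number 3 was lowest in 3 of 3 groups. RAB31 was higher by 0.46 on the log2 scale in number 2 than in number 1 (adjusted p = 0.0306), and highest there in 3 of 3 groups. Both missed the threshold when any of 4 libraries was left out, shSCR replicate 2 or 3 or replicate 3 of either knockdown group, at adjusted p-values of 0.0567 to 0.157 for RAB5A. RAB31 missed it then, and also without shG9a_4 replicate 1 or 2, at 0.0672 to 0.107.

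RAB21 itself was lowest in number 3 in each group, as were RAB4A and RAB11A. The fall of RAB21, by 0.18 on the log2 scale against number 2, missed the threshold in edgeR (unadjusted p = 0.0145, adjusted p = 0.108). Adjusted p-values of the other members that missed it ran from 0.159 for RAB4A to 0.905 for RABEP1. The median spread between the highest and lowest number was 0.17 over the members and 0.22 over all genes, on the log2 scale.

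The numbers also differed in other ways. Libraries of number 3 were the shallowest, with 53065611 to 54477100 reads in genes against 62486212 to 76958831 in the others, and had 3.67 to 4.34% unmapped reads against 2.75 to 3.21%. All 7 epithelial and basal markers differed between numbers. CDH1 averaged 19.0, 17.0 and 45.4 CPM and KRT17 averaged 381, 165 and 487 CPM in numbers 1, 2 and 3. Of the fibroblast markers, LUM and DCN did so, with DCN at 325, 382 and 161 CPM. Their part in the differences of RAB5A and RAB31 was not tested. No label ties a number to a day or batch.

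**Figure D3:**
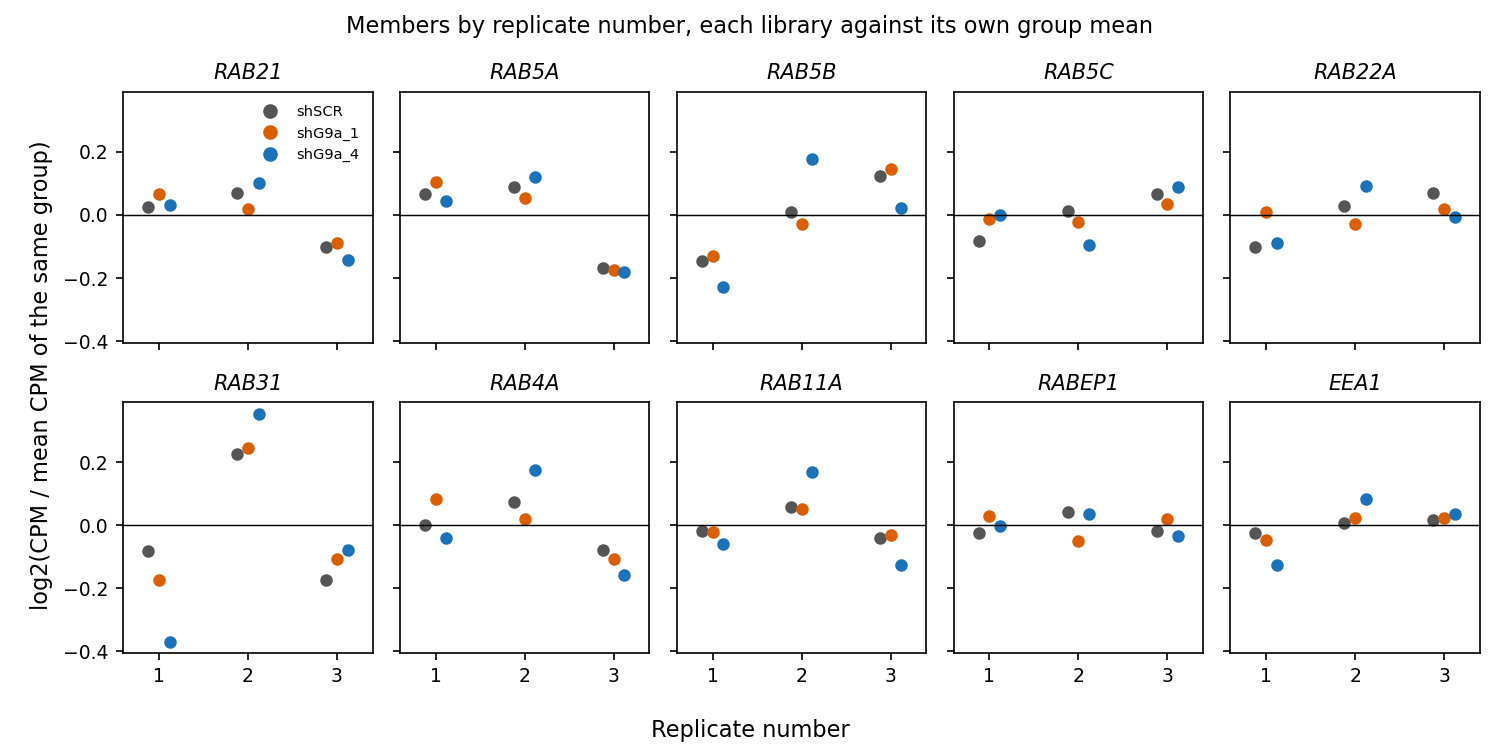
Level of each gene in each library relative to the mean of its own group, as log2 of the ratio of CPM values, by replicate number and coloured by hairpin. RAB21, RAB5A, RAB4A and RAB11A are lowest in number 3 in all 3 groups, RAB31 and RAB11A are highest in number 2, and RABEP1 stays within a narrow band.

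Over the 9 libraries the gene whose log2 level was most like that of RAB21, among 9108 genes with a mean of at least 10 CPM, was NHLRC2 (Pearson r = 0.995). Then came PRDX3, a mitochondrial peroxidase (0.990), CCDC25 (0.987), RHEB, a GTPase that activates mTORC1 (0.987), and ANO6, a phospholipid scramblase (0.977). The correlation takes no account of the size of a change. NHLRC2 was at 1.26 times control in shG9a_1 and 1.23 times in shG9a_4, against 1.64 and 1.61 times for RAB21. It missed the threshold in both (adjusted p = 0.172 and 0.472 in edgeR). PRDX3 was at 197, 230 and 200 CPM under shSCR, 348, 348 and 326 CPM under shG9a_1, and 339, 371 and 300 CPM under shG9a_4. RHEB was at 77.4, 87.3 and 79.1 CPM under shSCR, 115, 114 and 110 CPM under shG9a_1, and 113, 121 and 106 CPM under shG9a_4. Both stood higher in all 6 knockdown libraries than in the 3 controls. Counts of PRDX3 and RHEB are uncertain where near-identical copies share their reads. The 9 other members reached −0.29 (RAB5C) to 0.54 (RAB11A), and the median over all genes compared was 0.009. These correlations are a description over libraries that all the genes share, and they use the contrast on which RAB21 was chosen.

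A different set was most like RAB21 once each gene's group means were taken out, which leaves the variation between replicates. It held CARNMT1, a carnosine methyltransferase (r = 0.998), POLR2K, a subunit of the RNA polymerases (0.994), PGM2, a phosphoglucomutase (0.994), ACP1, a small tyrosine phosphatase (0.991), and KBTBD4 (0.990). None of these 5 passed the threshold in either knockdown comparison (adjusted p of 0.928 or more in edgeR). RAB5A followed at 0.977, the 54th of 9108 genes, and RAB4A at 0.936, RAB11A at 0.778 and RABEP1 at 0.658. RAB5C ran the other way at −0.67, and the median over all genes was 0.21. Again the 9 points share libraries, and the numbers differ in depth as given above.

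As examples, the 250 bases before the annotated starts of RAB21 and RAB5A are shown here, since the cells carry ectopic MYC and both stretches hold CACGTG. That palindrome, the same on both strands, is the E-box that MYC binds together with MAX. The sequences are from RefSeq on GRCh38.p14, at chr12:71754613-71754862 for RAB21 and chr3:19946847-19947096 for RAB5A, plus strand, with the motif in capitals.
RAB21: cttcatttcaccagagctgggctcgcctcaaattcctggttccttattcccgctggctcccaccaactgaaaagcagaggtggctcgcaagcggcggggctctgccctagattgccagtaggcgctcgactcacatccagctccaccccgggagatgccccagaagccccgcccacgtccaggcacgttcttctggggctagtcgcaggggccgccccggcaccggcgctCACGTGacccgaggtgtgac
RAB5A: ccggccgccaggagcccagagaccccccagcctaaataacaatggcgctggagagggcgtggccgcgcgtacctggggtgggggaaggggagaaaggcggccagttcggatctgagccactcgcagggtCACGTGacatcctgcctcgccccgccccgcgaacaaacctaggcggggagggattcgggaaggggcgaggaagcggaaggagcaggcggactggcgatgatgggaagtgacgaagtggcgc
The motif lies with its centre 17 bases before the start in RAB21 and 118 bases before it in RAB5A. RAB31 (57 bases before) and RAB4A (99 bases before) have it as well, which makes 4 of the 9 members with an entry. The same stretch holds it in 6.34% of all 35116 RefSeq promoters and in 8.08% of those of the genes tested. Of these 4 genes RAB21 was chosen for its difference from control, and the other 3 did not pass the threshold in either knockdown comparison. No binding was measured in these files, so a match is a description of the sequence.

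The wider pathway was described with 7 gene lists of 135 genes, of which 125 were tested. Of these, 0 passed the threshold in edgeR in shG9a_1, in shG9a_4 or between the hairpins, and DESeq2 called 0 in each. Over all genes 0.038%, 0.0271% and 0% passed in edgeR. Counts of 0 here and in each list below therefore say little by themselves. An unadjusted p under 0.05 was found for 13, 2 and 7 of the 125, where 7.5%, 2.38% and 4.09% of all genes had one. In shG9a_1, 86 stood higher than control and 39 lower, with a median log2 fold change of 0.06, and in shG9a_4 68 stood higher and 57 lower, with a median of 0.007. The groups did not overlap for 30 genes in shG9a_1, for 8 in shG9a_4 and for 8 between the hairpins, of 125 each, against 16.1%, 7.04% and 9.8% of all genes.

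Regulators of RAB5 and RAB21, the exchange factors that switch them on and the GTPase-activating proteins that switch them off, had 0 of 11 genes past the threshold in each comparison. Their medians were 0.02 in shG9a_1 and 0.003 in shG9a_4. GAPVD1, an exchange factor of RAB5, was at 176 ± 9.17, 165 ± 10.6 and 167 ± 5.98 CPM in the 3 groups, in the order shSCR, shG9a_1, shG9a_4 (SD, n = 3 each). ANKRD27, an exchange factor of RAB21 also known as VARP, was at 69.1 ± 1.67, 63.5 ± 3.31 and 65.9 ± 3.25 CPM.

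RAB5 effectors, tethers and fusion factors had 0 of 24 past the threshold, with medians of 0.06 and 0.006. The groups did not overlap, in either direction, for 11 of them in shG9a_1 (45.8%) and for 4 in shG9a_4 (16.7%). Over all genes these shares were 16.1% and 7.04%, and the difference from them was not tested. The share was not particular to this list. In shG9a_1 the prenylation genes had 3 of 8 (37.5%) and the retromer and sorting genes 6 of 19 (31.6%), with 0 in shG9a_4 for both. Recycling genes (5.88%) and the regulators (9.09%) lay below the share of all genes in shG9a_1. ANKFY1, an effector known as rabankyrin that binds RAB5 and has been linked to fluid uptake, was at 86.7, 87.4 and 92.6 CPM under shSCR, 99.8, 106 and 119 CPM under shG9a_1, and 101, 107 and 110.5 CPM under shG9a_4. Both knockdown groups lay above control. Its log2 fold change was 0.31 in shG9a_1 (SE 0.07), where the adjusted p in edgeR was 0.378 and, once the block was added, 0.0434, and 0.26 in shG9a_4 (SE 0.07, adjusted p = 1.00, or 0.307 with the block). APPL1, an adaptor of early signalling endosomes, was at 121, 114 and 121 CPM by group, and ZFYVE16, also called endofin, at 120, 128 and 126 CPM.

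The recycling list had 0 of 17 past the threshold, with medians of 0.08 and −0.02. TFRC, the transferrin receptor and the classic recycling cargo, was at 1621 ± 50.01, 1551 ± 92.2 and 1587 ± 119.7 CPM, and RAB14 at 94.4, 94.7 and 91.4 CPM by group. RAB7 and late endosome genes had 0 of 11 past the threshold, with 11 of 11 higher in shG9a_1 (median 0.08) and 7 of 11 in shG9a_4 (median 0.02). In edgeR 0 of them had an unadjusted p under 0.05 in either comparison. The 11 genes share the same libraries and are not separate observations, and the count by direction was not tested. The lysosomal membrane proteins LAMP1 and LAMP2 stood at log2 fold changes of 0.10 and 0.09 in the first comparison and at 0.007 and 0.05 in the second. Retromer, WASH complex and sorting genes had 0 of 19 past the threshold, with medians of 0.04 and 0.02. VPS35, the core of retromer, was at 228 ± 1.77, 219 ± 3.70 and 224 ± 12.2 CPM, and SNX5, a sorting nexin, at 298 ± 16.6, 258 ± 9.30 and 301 ± 11.3 CPM.

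Genes for the prenylation and membrane cycling of RAB proteins had 0 of 8 past the threshold, with medians of 0.08 and 0.02. GDI2, which extracts inactive RABs from membranes, was at 519, 497 and 507 CPM by group, and RABGGTB, a subunit of the enzyme that adds their lipid anchor, at 215, 191 and 223 CPM. The other RAB GTPases had 0 of 35 tested genes past the threshold, with medians of 0.07 and 0.003, and 10 more were not tested here. RAB10 and RAB1A, GTPases of secretory traffic, were at 192, 197 and 189 CPM and at 169, 178 and 173 CPM by group.

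RAB27B, which docks secretory vesicles and is no early endosome protein, was at 110, 109 and 83.4 CPM under shSCR, 149, 135 and 105 CPM under shG9a_1, and 131, 135 and 93.0 CPM under shG9a_4. Number 3 was lowest in each group, so the groups overlapped while every knockdown library exceeded the control of its own number. Its log2 fold change was 0.38 in shG9a_1 (SE 0.17), where the adjusted p in edgeR was 0.662 and, once the block was added, 0.0337, and 0.26 in shG9a_4 (SE 0.17, adjusted p = 1.00, or 0.439 with the block). Of the 5 basal markers, KRT14, a basal keratin, passed with the block, at log2 fold changes of 0.87 and 0.74 in that fit (adjusted p = 0.00576 and 0.0148), and missed the threshold without it (0.633 and 1.00). KRT5, KRT17, TP63 and ITGB4 missed it in both fits, with TP63 at −0.02 and 0.43 with the block. The 5 markers summed to 2073 to 3416 CPM under shSCR, 2766 to 3932 CPM under shG9a_1 and 2200 to 3620 CPM under shG9a_4. Their part in the values of RAB27B was not tested.

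Between replicate numbers 9 of the 125 list genes changed, or 7.2%, near the 7.47% of all genes. These were the recycling genes EHD3 and MYO5B, the sorting genes SNX27 and VAMP7, and RAB2A, RAB13, RAB17, RAB27B and RAB38. EHD3, a membrane-shaping ATPase, fell by 1.10 on the log2 scale in number 3 against number 2 (adjusted p = 0.00869 in edgeR). RAB17, a GTPase of polarised epithelia, was higher by 0.76 on the log2 scale in number 3 than in number 2 (adjusted p = 0.0051).

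**Figure D4:**
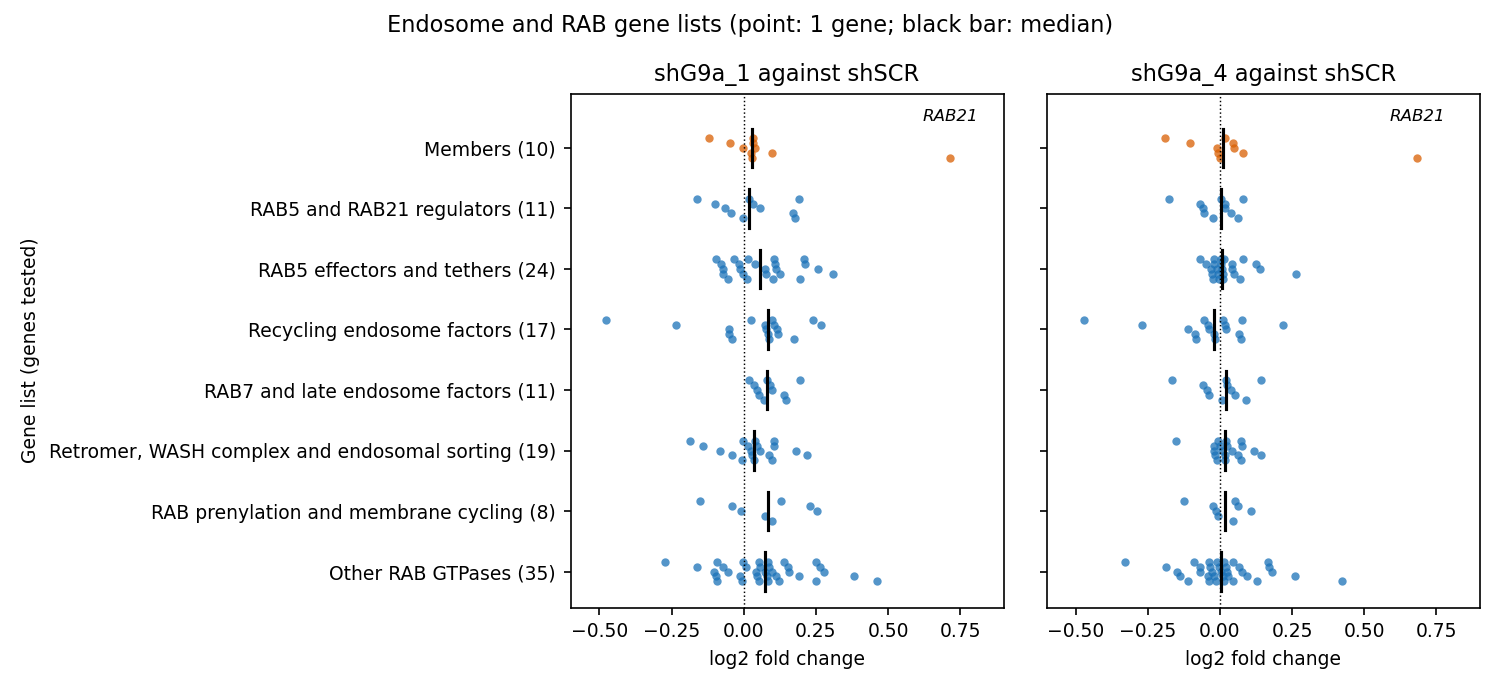
Log2 fold changes against shSCR of the 10 members and of the tested genes of each list, with 1 point per gene and a black bar at the list's median, for shG9a_1 (left) and shG9a_4 (right). RAB21 at 0.72 and 0.68 lies to the right of each of the 125 list genes, which run from −0.48 to 0.46 and from −0.47 to 0.42.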

How the data were processed

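The authors deposited whole-number counts of reads per gene for each library, per the file headers in the layout of the aligner STAR. STAR 2.5.2a is listed in the submitters' processing notes, next to DESeq, R 3.3.1 and edgeR 3.14.0 and to the builds hg19 and GRCh37, without roles. Annotation release and alignment settings were not given in the sources used here. Per the labels, total RNA was depleted of ribosomal RNA and sequenced as stranded pairs of 75 bases. The reverse-strand column was used, since it held 94.7 to 95.1% of stranded reads. The 4 summary classes that name no gene (23.2 to 27.7% of read pairs) were left out. The deposited tables of the authors' comparisons give posterior probabilities (a score from 0 to 1) and a linear fold (ratio) per gene.

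CPM values were computed from the counts. The test was that of edgeR 4.0.16, run in R 4.3.3 (TMM scaling, filterByExpr, quasi-likelihood F-test, all 9 libraries, 6 residual degrees of freedom), two-sided, with Benjamini-Hochberg adjustment over 18435 genes and a threshold of 0.05. The alternatives were a replicate block (4 residual degrees of freedom), RLE scaling, no filter, unstranded counts, only the 2 groups compared, DESeq2 1.42.0, and leaving out each library. Log2 fold changes had a median SE of 0.154. The edgeR fit without the block was tried on simulated counts, for shG9a_1 against shSCR only. Those counts held no differences between replicate numbers, and the other fits were not tried in this way. No 2 libraries of a group agreed within sampling noise.

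Replicate numbers are shared by the groups, and deviations from group means correlated at 0.178 to 0.461 in 9 of 9 same-numbered pairs (−0.327 to 0.169 in the 18 others). The numbers were therefore taken to pair the libraries, a pairing that comes from the data and not from a label.

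The members and gene lists were chosen with earlier results of these data known. The text names all 10 members, EHMT2, the 2 most abundant genes of each list and those past the threshold without or with the block, and the 5 genes most like RAB21 by each of 2 correlations (log2 CPM, prior count 2). RAB17 and EHD3, and the markers given by name, were picked after their values were seen. Symbols came from a table of gene names (55277 of 60308 identifiers) and GENCODE 29 (421), which is on another build, so it served for names, exon lengths and overlaps only.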

Additional observations from a re-analysis of the deposited data

How the results depend on the processing

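Against shSCR, RAB21 kept its direction under every alternative run, with log2 fold changes of 0.66 to 0.76 in shG9a_1 and 0.62 to 0.77 in shG9a_4. As a description, it was the single member past the threshold in both. The counts that follow against shSCR are RAB21's own calls and carry no test, since it was chosen for these differences. Leaving out single libraries gave 0 to 1 members in shG9a_1, where each shSCR replicate, each shG9a_1 replicate and shG9a_4 replicate 1 gave 0, and 0 to 1 in shG9a_4, where only leaving out shG9a_4 replicate 3 gave 1. Unstranded counts gave 0 in shG9a_4, as did a fit of only the 2 groups compared. Between the hairpins the count was 0 throughout. The other 9 members were not called in any of 15 settings per comparison, though 6, 7 and 6 of them changed sign in some setting in shG9a_1, in shG9a_4 and between the hairpins, all near 0.

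With the replicate block the pathway lists had 2 genes past the threshold in shG9a_1 (ANKFY1 and RAB27B), where they had 0 without it, and the unfiltered fit had 1 (RAB27B). The block changed no other call of a member or list gene. Between replicate numbers, 2 members became 0 to 4 when single libraries were left out, 0 without shSCR replicates 2 or 3, shG9a_1 replicate 3 or shG9a_4 replicate 3, 1 without shG9a_4 replicates 1 or 2, and 4 without shG9a_1 replicate 2. The 9 list genes became 15 with no filter and 2 to 13 over single libraries left out (13 without shG9a_1 replicate 2), 2 without shSCR replicate 3 or shG9a_4 replicate 3 and 3 without shG9a_1 replicate 3. Over all genes, DESeq2 called 80, 21 and 6 in shG9a_1, in shG9a_4 and between the hairpins, against 7, 5 and 0 in edgeR, 143, 14 and 0 with the block, and 288, 49 and 106 with no filter. The cause of these shifts was not tested. RAB31 had the fewest reads of the members (420 to 849), and its intervals limit what could be seen.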
